A study of Homo sapiens with 2 samples.

Results

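The 8 genes described here, *CXCL8*, *CXCL1*, *CXCL2*, *CCL20*, *TNFAIP3*, *NFKBIA*, *ICAM1* and *SAA1*, are textbook targets of the transcription factor NF-kB and include a set of chemokines. The deposited exon tables carry no gene names, so the members were taken as the exon rows lying wholly inside an hg19 window given for each gene, on the strand of that gene. This gave 43 of the 239322 rows. The lengths of 25 of the 27 rows that are neither first nor last in a window were also lengths of exons annotated for the same gene symbol. The exceptions were 1 of the 8 such rows of *TNFAIP3* and 1 of the 2 of *SAA1*.

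RNA came from Huh-7, a human hepatocellular carcinoma cell line. Control cells received 0.1% DMSO for 24 h, and treated cells received 0.1 mM BS008, an amiloride derivative made to modulate alternative splicing, for 24 h. Each condition has 1 library, so the spread between cultures is unknown and no test between conditions was made. Intervals below are 95% intervals that cover counting error only, and PCR copies, which the counts cannot tell apart, are not covered.

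The library totals were 55476654 reads (control) and 53578432 reads (BS008). The markers of hepatocytes *ALB*, *AFP*, *APOA1*, *TF* and *TTR* were all read in both libraries and together held 593144 and 530521 reads. Of the markers of other cells, *PTPRC* had 0 reads in both libraries, *CDH5* had 27 and 14, *COL1A1* 14 and 6, and *COL1A2* 0 and 2, whereas *LYZ* had 69542 and 42995 reads. The rows in the window set for *CD14* had 325 and 229 reads, but that window failed the check of row lengths and was left out. Which cells the *LYZ* reads came from, and any part of those cells in the results below, were not tested. As these are bulk samples of 1 cell line, fewer cells expressing a gene and less RNA per cell cannot be told apart.

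NF-kB dimers of the REL family are held in the cytoplasm by inhibitors of the IkB family. Cytokine receptors and danger sensors activate the IkB kinase, the inhibitor is degraded, and the dimers enter the nucleus and bind kB sites near their targets. Among these targets are chemokines and adhesion molecules, and also *NFKBIA* and *TNFAIP3*, whose products shut the pathway down again. In hepatocytes, acute-phase genes such as *SAA1* belong to the same network.

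The 200 bases before the annotated start of each gene are shown because a kB-like site is the feature these genes are known for. RefSeq (GRCh38.p14) held 7 of the 8 genes, with no entry for *SAA1*. Letters in capitals mark matches on either strand to the NF-kB consensus or to GGAATTTCC, whose matches can overlap those of the consensus.
CXCL8 (chr4:73740369-73740568, plus strand): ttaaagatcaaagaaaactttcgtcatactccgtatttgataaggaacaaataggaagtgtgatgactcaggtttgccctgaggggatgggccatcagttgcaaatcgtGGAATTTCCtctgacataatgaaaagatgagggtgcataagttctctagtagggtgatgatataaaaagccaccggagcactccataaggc
CXCL1 (chr4:73869193-73869392, plus strand): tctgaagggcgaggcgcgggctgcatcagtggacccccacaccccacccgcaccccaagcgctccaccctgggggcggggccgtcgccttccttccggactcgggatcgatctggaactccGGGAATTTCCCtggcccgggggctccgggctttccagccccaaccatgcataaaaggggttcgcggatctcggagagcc
CXCL2 (chr4:74099196-74099395, minus strand): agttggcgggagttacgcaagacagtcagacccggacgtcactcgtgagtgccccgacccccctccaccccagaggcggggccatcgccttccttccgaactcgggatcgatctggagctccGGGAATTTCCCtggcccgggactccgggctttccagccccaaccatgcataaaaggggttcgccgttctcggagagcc
CCL20 (chr2:227813642-227813841, plus strand): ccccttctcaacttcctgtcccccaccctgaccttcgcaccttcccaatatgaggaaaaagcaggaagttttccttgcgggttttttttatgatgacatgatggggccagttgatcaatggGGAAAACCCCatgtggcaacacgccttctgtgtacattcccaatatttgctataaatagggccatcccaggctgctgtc
TNFAIP3 (chr6:137867059-137867258, plus strand): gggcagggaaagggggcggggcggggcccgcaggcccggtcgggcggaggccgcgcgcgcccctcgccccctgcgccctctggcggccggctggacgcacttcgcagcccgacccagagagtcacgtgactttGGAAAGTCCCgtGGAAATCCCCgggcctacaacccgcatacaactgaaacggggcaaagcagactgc
NFKBIA (chr14:35404750-35404949, minus strand): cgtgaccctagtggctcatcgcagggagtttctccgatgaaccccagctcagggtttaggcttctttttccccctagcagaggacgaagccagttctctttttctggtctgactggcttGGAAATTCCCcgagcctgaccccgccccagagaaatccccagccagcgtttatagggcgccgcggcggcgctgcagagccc
ICAM1 (chr19:10270920-10271119, plus strand): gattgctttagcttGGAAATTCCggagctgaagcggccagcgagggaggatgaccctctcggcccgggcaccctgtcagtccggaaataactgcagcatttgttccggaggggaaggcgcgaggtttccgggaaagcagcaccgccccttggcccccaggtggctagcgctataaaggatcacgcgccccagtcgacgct

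Both motifs were chosen with these sequences in view. The consensus reads GGG, A or G, any base, A or T, C or T, C or T, and CC. The stretch of *CXCL8* held GGAATTTCC from 91 to 83 bases before the start, and no match to the consensus. In *CXCL1* the consensus lay from 79 to 70 bases before the start and in *CXCL2* from 78 to 69, in each with a second match on the other strand shifted by 1 base and with GGAATTTCC inside. *TNFAIP3* had a pair of consensus matches on the opposite strand, from 67 to 58 and from 55 to 46 bases before the start. *NFKBIA* had 1 from 81 to 72, which also holds GGAATTTCC, both on the opposite strand. The genes that were not higher after BS008 held matches as well, also on the opposite strand. These were *CCL20*, to the consensus from 79 to 70 bases, and *ICAM1*, to GGAATTTCC from 186 to 178 bases before the start. Over 35116 stretches of the same length, 4.21% held the consensus and 0.316% held GGAATTTCC. A match describes letters only, and binding was not measured.

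The chemokine genes *CXCL8*, *CXCL1* and *CXCL2*, whose products attract neutrophils, had 6 to 69 reads each in control cells and were 9.32- to 31.6-fold higher after BS008. Together their reads went from 108 to 1751. The feedback inhibitors *TNFAIP3* and *NFKBIA* were 3.41-fold and 1.86-fold higher. *CCL20* and *ICAM1* were not higher, and *SAA1* had too few reads to tell. Folds are ratios of CPM, the reads scaled to a common library total, whereas log2 ratios have 0.5 CPM added to each side, which pulls genes with few reads toward 0. A row or gene is called past 2-fold on the log2 scale. Because the same 0.5 CPM is added to a row as to a sum of rows, the log2 ratio of a sum can lie outside the range of its rows.

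**Figure D1:**
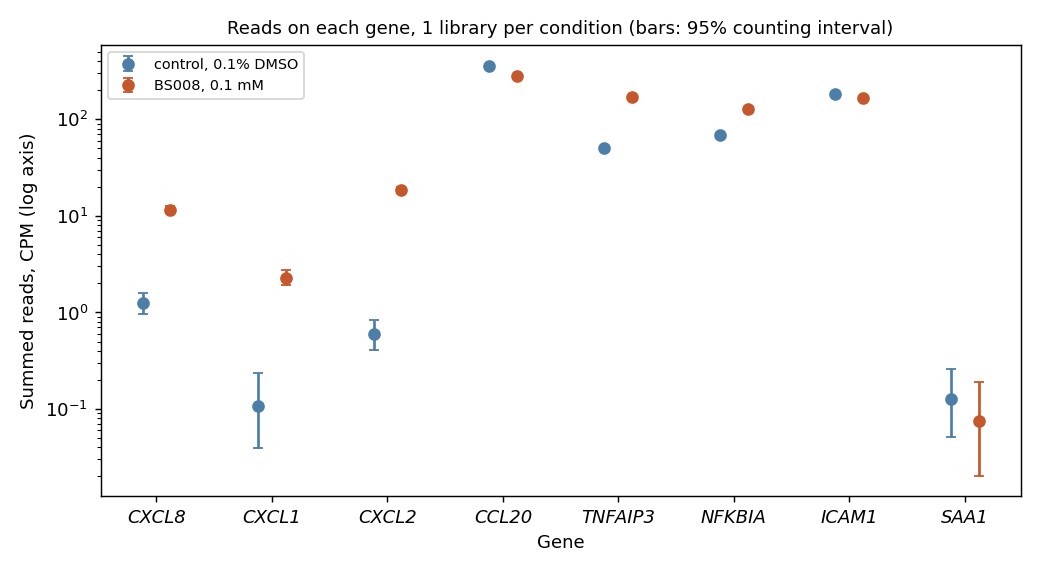
Summed reads of each gene in CPM (log axis) in the control library (blue) and the BS008 library (orange), with 95% exact Poisson intervals that cover counting error only. The points of *CXCL8*, *CXCL1*, *CXCL2*, *TNFAIP3* and *NFKBIA* lie higher in BS008, *CCL20* and *ICAM1* lie slightly lower, and the intervals of *SAA1* overlap.

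*CXCL8*, on chromosome 4 from 74606275 to 74609431 (hg19, as for all row positions here), encodes interleukin-8, a ligand of the receptors *CXCR1* and *CXCR2*. The control library held 69 of its reads and the BS008 library 621, a 9.32-fold difference (7.26 to 12.1; log2 ratio 2.79). From 5′ to 3′ its 4 rows had 22, 31, 11 and 5 reads in control and 162, 218, 75 and 166 in BS008. Each row was higher after BS008. The first 3 rows differed by a like amount, 7.62-, 7.28- and 7.06-fold, and the last row, which is 1266 bases long, by 34.4-fold (14.4 to 107).

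*CXCL2*, on the minus strand of the same chromosome, from 74962764 to 74964997, encodes another ligand of *CXCR2*. It had 33 reads in control and 1007 in BS008, a 31.6-fold difference (22.4 to 46.2; log2 ratio 4.14). Its 4 rows had 8, 9, 3 and 13 reads in control and 187, 266, 137 and 417 in BS008. All 4 were higher, by 24.2- to 47.3-fold, and their intervals overlapped one another. This was the largest fold among the 8 genes, although its interval overlapped that of *CXCL1*.

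*CXCL1*, also on chromosome 4, from 74735109 to 74736953, encodes a close relative of the *CXCL2* product. It had 6 reads in control and 123 in BS008, a 21.2-fold difference with a wide interval (9.48 to 59.0; log2 ratio 2.20). The 4 rows had 1, 1, 0 and 4 reads in control against 14, 23, 9 and 77 in BS008. Row 3, without a read in control, was 3.11-fold higher when control was set to the floor of 3 reads per library. The interval from the reads of that row had a lower limit of 2.04-fold and no upper limit. The median of the *CXCL1* row log2 ratios was 0.84, under the 2-fold mark that the sum passed. Reads could in part be shared between these relatives. Of the 50-base stretches of the annotated *CXCL1* transcripts, 5.73% also occur in *CXCL2* and 0.573% in *CXCL3*. Of those of *CXCL3*, 5.26% also occur in *CXCL2*. *CXCL8* shared none of these stretches with *CXCL1*, *CXCL2* or *CXCL3*. How reads that match several places were counted is not stated in the sources used here.

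*CCL20*, on chromosome 2 from 228678558 to 228682280, encodes the ligand of the receptor *CCR6*, which attracts lymphocytes and immature dendritic cells. Unlike *CXCL8*, *CXCL1* and *CXCL2* it was already abundant, with 19979 reads in control and 15129 in BS008. It was thus 1.28-fold lower after BS008 (1.25 to 1.30), with a log2 ratio of -0.35. Its rows had 1804, 2258, 1661 and 14256 reads in control and 1564, 2102, 1560 and 9903 in BS008. The difference lay mostly in the last row, which was 1.39-fold lower, while rows 2 and 3 were 1.04- and 1.03-fold lower with intervals that included no difference. Without that last row the log2 ratio was -0.080. *CCL20* took 54.3% (53.8 to 54.8%) of all reads on the 43 rows in control and 36.0% (35.6 to 36.5%) in BS008.

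*TNFAIP3*, on chromosome 6 from 138188581 to 138204445, encodes A20, a ubiquitin-editing enzyme that ends NF-kB signalling. It had 2788 reads in control and 9188 in BS008, a 3.41-fold difference (3.27 to 3.56; log2 ratio 1.76). All 10 rows were higher, from 2.69-fold in row 9 to 4.82-fold in row 5, and 9 of them passed 2-fold on the log2 scale. The exception was the second row, from 138188724 to 138188873, with 3 and 13 reads. That row shares 95 bases with a row on the opposite strand, and whether the counting used strand is not stated, so its reads cannot be assigned to either. Without it the log2 ratio of *TNFAIP3* was 1.76.

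*NFKBIA*, a minus-strand gene of chromosome 14 lying from 35870717 to 35873960, encodes IkB alpha, the inhibitor that NF-kB restores after each activation. It had 3856 reads in control and 6926 in BS008, a 1.86-fold difference (1.79 to 1.94; log2 ratio 0.89), and so stayed under 2-fold, whereas the sum of its deposited RPKM, which weighs short rows more, gave 1.01. All 6 rows were higher. The rows from 5′ to 3′ differed by 1.45-, 1.58-, 1.77-, 3.14-, 2.19- and 1.80-fold. Rows 4 and 5 were the ones past 2-fold, with 165 and 674 reads in control against 500 and 1428 in BS008.

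*ICAM1*, on chromosome 19 from 10381517 to 10397291, encodes an adhesion molecule that binds leukocyte integrins. It had 10062 reads in control and 8984 in BS008, which is 1.08-fold lower (1.05 to 1.11; log2 ratio -0.11). Its 7 rows were split. Rows 1, 2 and 5 were 1.21-, 1.12- and 1.13-fold higher, rows 4 and 6 differed by less than their intervals, and rows 3 and 7 were 1.11- and 1.18-fold lower. The sum followed row 7, which at 1501 bases held 5849 and 4771 reads, and without it the log2 ratio was 0.050.

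*SAA1*, on chromosome 11 from 18287772 to 18291526, encodes serum amyloid A, an acute-phase protein of the liver. It had 7 reads in control and 4 in BS008, and the ratio of 0.592 had an interval from 0.127 to 2.33. A difference was not detectable at this depth. Its relative *SAA2*, which shares 46.6% of the 50-base stretches of *SAA1*, had 0 reads in both libraries.

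Levels between genes were compared per length, as RPKM, the reads scaled to the summed length of the rows and to the library total. In control the order was *CCL20* (428), *ICAM1* (55.9), *NFKBIA* (36.4), *TNFAIP3* (10.98), *CXCL8* (0.753), *CXCL2* (0.499), *SAA1* (0.176) and *CXCL1* (0.0981). From *CXCL8* down, each gene's counting interval overlapped that of the next. In BS008 the order was *CCL20* (335), *NFKBIA* (67.8), *ICAM1* (51.7), *TNFAIP3* (37.5), *CXCL2* (15.8), *CXCL8* (7.02), *CXCL1* (2.08) and *SAA1* (0.104), and no neighbours overlapped. *NFKBIA* and *ICAM1* thus changed places, as did *CXCL2* and *CXCL8*, and *SAA1* and *CXCL1*. *CCL20* had the highest level in both libraries.

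Of the 43 rows, 38 had at least 10 reads in either library, and the other 5 were all 4 rows of *SAA1* and 1 of *CXCL1*. Among the 38, 20 passed 2-fold upward in BS008 and 0 downward. Over all 131330 rows with as many reads, 3.73% passed 2-fold upward and 3.79% downward. The 20 rows were 4 of *CXCL8*, 4 of *CXCL2*, 1 of *CXCL1*, 9 of *TNFAIP3* and 2 of *NFKBIA*. Rows 1 and 2 of *CXCL1* had 14.5- and 23.8-fold more CPM but stayed under the mark, as their levels in BS008, 0.261 and 0.429 CPM, lay below the 0.5 CPM added. However, 8 of the 38 passed the minimum only through their BS008 reads and had to be higher. With at least 10 reads in both libraries, 15 of 30 rows passed 2-fold upward and 0 downward, against 3.6% and 3.96% of all rows. Their median log2 ratio was 0.97, against -0.048 over all rows. Rows of 1 gene share its transcripts and are not independent. The members were chosen with earlier results of these data known, which also limits the comparison with all rows.

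**Figure D2:**
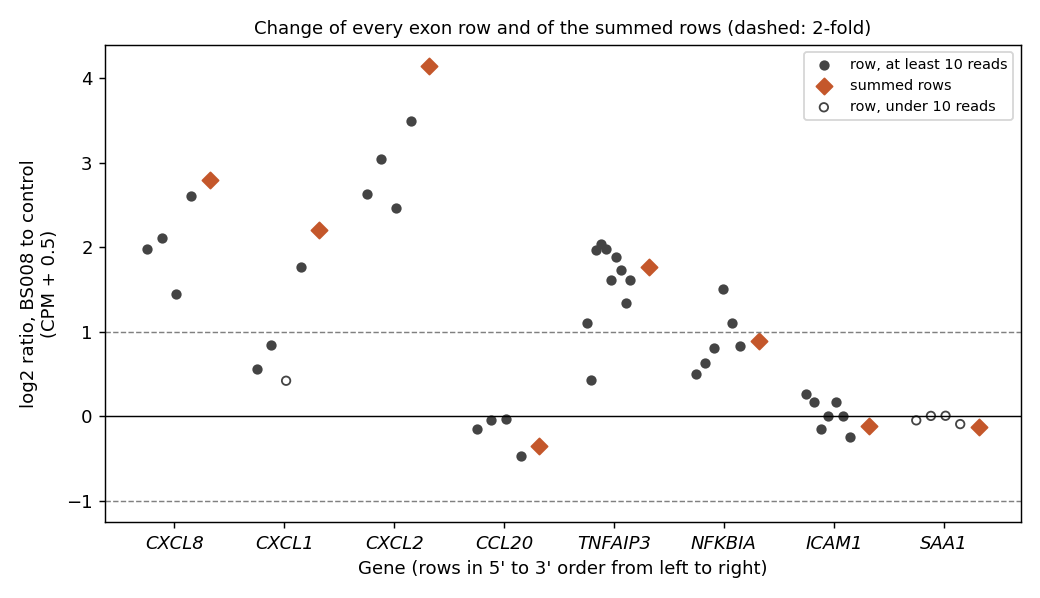
Log2 ratios (BS008 over control, CPM plus 0.5) of every exon row (filled, at least 10 reads in either library; open, fewer) and of each gene's summed rows (diamonds), with dashed lines at 2-fold. All rows of *CXCL8* and *CXCL2* lie above the upper line, *TNFAIP3* has 9 of 10 rows above it, and the rows of *CCL20* and *ICAM1* lie between -0.47 and 0.26.

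The share of a gene's reads held by each row was then compared between the libraries, because BS008 was studied as a splicing modulator. A gene that changes as a whole keeps these shares. In *CXCL8* the last row went from 7.25% (3.13 to 15.9%) of the reads in control to 26.7% (23.4 to 30.3%) in BS008, a difference of 19.5 percentage points (10.2 to 25.0). It rested on 5 reads in control, and as a share of the summed deposited RPKM the difference was 2.84 points. The shares of the other 3 rows of *CXCL8* and of all rows of *CXCL1* and *CXCL2* differed by less than their intervals.

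In the more deeply read genes the shares of reads moved by less than 6 percentage points. The share of the last row, as BS008 minus control, changed by -5.90 points in *CCL20* (-6.88 to -4.91), -5.02 in *ICAM1* (-6.43 to -3.61) and -4.07 in *TNFAIP3* (-6.16 to -1.98). In each of these the last row is also the longest. The rows that gained were rows 1 to 3 of *CCL20*, rows 1, 2 and 5 of *ICAM1*, and rows 3, 4, 5 and 7 of *TNFAIP3*, while row 9 of *TNFAIP3* lost share. In *NFKBIA* the last row changed by -1.14 points, within its interval. Its rows 4 and 5 gained 2.94 (2.04 to 3.81) and 3.14 points (1.59 to 4.65), while rows 1 and 2 changed by -1.76 (-2.81 to -0.743) and -2.18 points (-3.55 to -0.853). As shares of the summed RPKM the last row changed by -3.13 points in *ICAM1* and -1.43 in *TNFAIP3*, and row 4 of *NFKBIA* gained 8.07. Junction reads are not among the values used here, so these shares do not separate splicing from uneven coverage along the transcript.

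**Figure D3:**
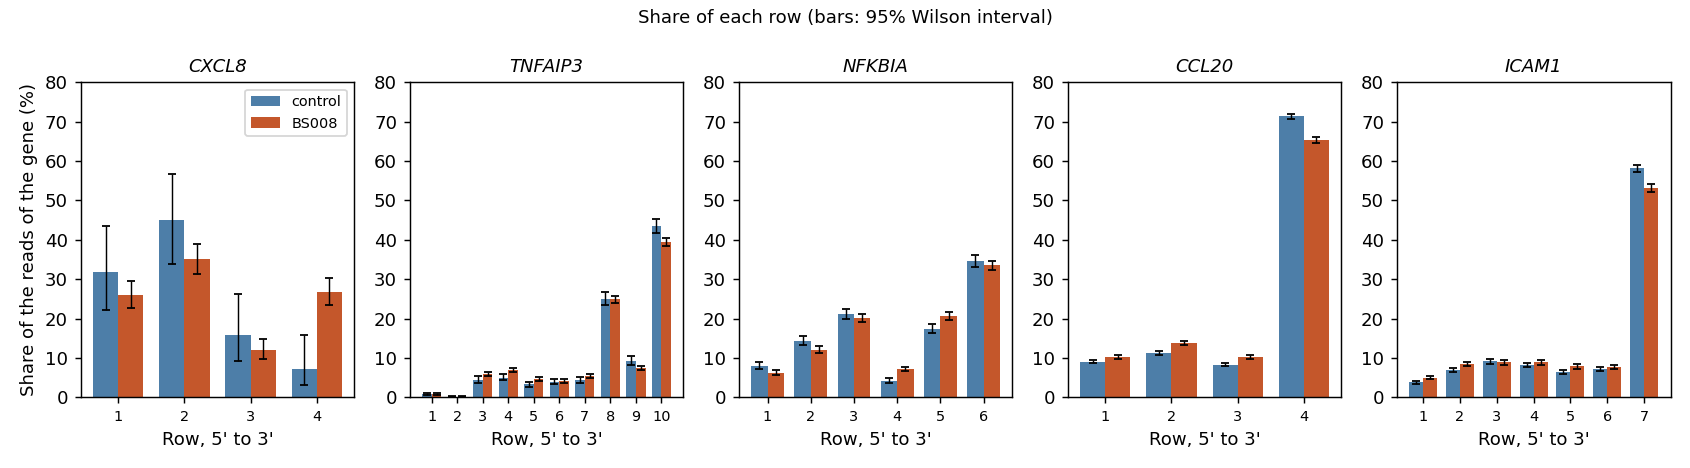
Percent of the reads of a gene held by each of its rows, in 5′ to 3′ order, in control (blue) and BS008 (orange), with 95% Wilson intervals. The last row is higher in BS008 in *CXCL8* (26.7% against 7.25%) and lower in *TNFAIP3*, *CCL20* and *ICAM1*.

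Other genes of the pathway were taken from 8 lists plus the chemokine receptors, in all 64 genes, by hg19 windows placed from general knowledge. *CXCR1*, *CCR6*, *IER3* and *CRP* were left out because no or too few row lengths matched the annotation, or no inner row existed. Of the 60 used, 45 had at least 10 reads in either library, of which 9 passed 2-fold upward, 5 downward and 31 neither, with a median log2 ratio of 0.16. The rows in the windows set for *IER3* (5227 and 15293 reads, 3.03-fold higher) and *CCR6* (787 and 193, 3.94-fold lower) were past 2-fold, and with all 64 windows 10 passed upward and 6 downward. These are values of genes, for which the files give no background over all genes.

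Among the 5 NF-kB subunits, 3 passed 2-fold upward and 0 downward. *RELB*, a subunit of the noncanonical pathway, had 434 reads in control and 1333 in BS008 (3.18-fold, 2.85 to 3.55). *NFKB2*, its usual partner, had 2745 and 5532 (2.09-fold, 1.99 to 2.19), and *REL* had 291 and 593 (2.11-fold, 1.83 to 2.44). *RELA* and *NFKB1*, which form the classical dimer, were 1.12-fold (1.08 to 1.17) and 1.17-fold (1.11 to 1.23) higher. The log2 ratio of *REL* fell below the 2-fold mark, to 0.95, with a pseudocount of 1.

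None of the 6 other inhibitors or regulators, and none of the 4 kinases, passed 2-fold. *NFKBIB*, *CYLD* and *NFKBIE* were 1.71-, 1.66- and 1.59-fold higher, *TNIP1* 1.10-fold higher, and *BCL3* and *NFKBIZ* 1.11- and 1.19-fold lower. *IKBKB* and *IKBKG*, the catalytic and the regulatory subunit of the IkB kinase, were 1.51- and 1.22-fold higher. *CHUK*, the other catalytic subunit, was 1.23-fold lower, and *MAP3K7*, the kinase upstream of it, 1.67-fold lower (1.58 to 1.77).

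Of the 9 other chemokine genes, 4 had at least 10 reads. *CXCL3*, another close relative of *CXCL1* and *CXCL2* that could share reads with them, went from 15 to 312 reads (21.5-fold, 12.9 to 38.9). *CX3CL1*, a membrane-bound chemokine, went the other way, from 4968 to 1224 (3.92-fold lower, 3.68 to 4.18). *CXCL5*, with 4978 reads in control and 3221 in BS008, was 1.49-fold lower, and *CXCL16* was 1.15-fold higher. *CXCL6*, *CXCL11* and *CCL2* had 0 reads in both libraries.

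Of the 8 cytokine genes, 4 had at least 10 reads in either library, and 3 of these passed 2-fold upward. *LIF*, a cytokine of the interleukin-6 family, had 188 and 970 reads (5.34-fold higher, 4.57 to 6.28) and *IL18* had 164 and 502 (3.17-fold, 2.65 to 3.80). *CSF1*, with 437 and 676 reads, was 1.60-fold higher (1.42 to 1.81) and did not pass 2-fold. *TNF*, the cytokine that itself activates NF-kB, had 0 reads in control and 36 in BS008. It was 12.4-fold higher when control was set to the floor of 3 reads. The interval from the reads themselves had a lower limit of 9.60-fold and no upper limit. In the *TNF* window 1 of 2 inner rows had an annotated exon length. *IL6* and *IL1B* had 0 reads in both libraries.

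Among the receptors and adaptors, 8 of 10 did not pass 2-fold. *IL6R*, the interleukin-6 receptor, had 1336 and 3814 reads (2.96-fold higher, 2.78 to 3.15). *MYD88*, the adaptor of Toll-like and interleukin-1 receptors, had 1634 and 512 (3.08-fold lower, 2.79 to 3.41), from a window where 1 of 2 inner rows had an annotated exon length. Of the 9 other targets used, 6 had at least 10 reads in either library, and 4 of these 6 did not pass 2-fold. *BIRC3*, an inhibitor of apoptosis, went from 61 to 305 reads (5.18-fold higher, 3.92 to 6.93). *PLAU*, the urokinase gene, went from 2203 to 657 (3.24-fold lower, 2.97 to 3.54).

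The genes on the acute-phase list did not follow *CXCL8*, *CXCL1* and *CXCL2*. Of 6 with at least 10 reads in either library, 0 passed 2-fold upward. *SAA4*, a constitutive relative of *SAA1* (4.31-fold, 3.79 to 4.91), and *HP*, which encodes haptoglobin (2.68-fold, 2.46 to 2.92), were lower. *FGB*, *ORM1*, *SERPINA3* and *C3* had log2 ratios between -0.29 and 0.45. The hepatocyte markers lay between -0.55 and 0.22.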

How the data were processed

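RNA of Huh-7 cells was prepared with an Illumina mRNA-seq kit, and 2 libraries, 1 per condition, were used. The authors deposited raw read counts for each exon row (chromosome, start, end and strand) and RPKM values. Recomputing RPKM from the deposited counts returned the values to within 4.72e-06. The build is hg19 per the submitters' processing notes, and the aligner, counter and annotation were not given in the sources used here. The members and lists were chosen with earlier results of these data known.

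Counts were summed over the rows of a gene and divided by the library total. Folds have exact conditional (Clopper-Pearson) 95% intervals, sums exact Poisson and shares Wilson intervals, with Newcombe intervals for differences of shares. A row was compared with at least 10 reads in either library and called past 2-fold. The floor was 3 reads. The other pathway genes named were all subunits, inhibitors and kinases, and genes past 2-fold with at least 100 reads in the higher library. *TNF*, genes listed at 0 and other genes within 2-fold were named after their values were seen. A window was used where at least 50% of its inner rows had the length of an exon of that symbol in GENCODE release 29, whose coordinates (GRCh38) were not used. That limit was set after the values were seen, and the counts without it are given. The calculation of folds and their intervals was tested on simulated data, which is no test between the conditions. Python 3.11.15, scipy 1.17.1, pandas 2.3.3, edgeR 4.0.16 (TMM) and DESeq2 1.42.0 (size factors) were used. Alternatives were other scalings, pseudocounts, minimums, thresholds and row choices.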

Additional observations from a re-analysis of the deposited data

Results flagged for a closer look

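A minus-strand row of chromosome 6, from 138188779 to 138189370, was singled out because it lies outside the rows of the genes described and its reads exceeded those of the control library. It had 2 reads in control (0.242 to 7.22) and 74 in BS008 (58.1 to 92.9), a 38.3-fold difference (10.2 to 322). It overlaps 95 bases of the second row of *TNFAIP3*, which had 3 and 13 reads, on the opposite strand. The other minus-strand row in that window, from 138187720 to 138188021, had 8 and 3 reads.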

How the results depend on the processing

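The direction of *CXCL8*, *CXCL1*, *CXCL2*, *CCL20*, *TNFAIP3* and *NFKBIA* held under every alternative run, and *ICAM1* turned to a log2 ratio of 0.050 without its longest row. The log2 ratio of *SAA1* stayed negative, but with 7 and 4 reads its direction is undetermined. With a pseudocount of 0.1 the log2 ratio was 3.52 for *CXCL1* and 4.77 for *CXCL2*. TMM factors gave -0.30 for *CCL20* and -0.064 for *ICAM1*, and median-of-ratios size factors -0.32 for *CCL20*. Without the longest row, *CXCL1* was at 1.34, *CCL20* at -0.080 and *TNFAIP3* at 1.85. The median over rows gave 2.04 for *CXCL8*, 0.84 for *CXCL1*, 2.84 for *CXCL2*, -0.10 for *CCL20*, 1.67 for *TNFAIP3*, 0.82 for *NFKBIA* and -0.0043 for *ICAM1*, and no value for *SAA1*. *CXCL1* fell below 2-fold there because the pseudocount weighs more on its single rows. The sum of deposited RPKM gave 3.48 for *CXCL1*, 4.84 for *CXCL2*, -0.20 for *CCL20*, 1.89 for *TNFAIP3*, 1.01 for *NFKBIA* and -0.0059 for *ICAM1*. The call of *NFKBIA* thus depends on how its rows are weighted.

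The number of member rows at least 2-fold higher was 23 with a pseudocount of 0.1, 19 with 1, and 24 at 1.5-fold. With at least 100 reads in either library it was 17 of 32. None was lower under these settings. Rows that reached 100 reads only in BS008, among them all those of *CXCL2*, had to be higher. Over all rows, 11471 were higher and 11189 lower with a pseudocount of 0.1, 3020 and 3017 with 1, and 15150 and 18306 at 1.5-fold. With at least 100 reads, 3654 were higher and 4233 lower of 68432. As shares of the summed RPKM, the last row moved by 2.84 percentage points in *CXCL8*, -1.43 in *TNFAIP3* and -3.13 in *ICAM1*, and row 4 of *NFKBIA* by 8.07. As the median RPKM of the rows, the level in control was 2.38 for *CXCL8*, 369 for *CCL20*, 11.5 for *TNFAIP3*, 38.7 for *NFKBIA* and 52.0 for *ICAM1*, and in BS008 17.5 for *CXCL8*, 21.9 for *CXCL2*, 354 for *CCL20*, 44.1 for *TNFAIP3* and 88.8 for *NFKBIA*. Of 175 alternative values for 35 other genes, 0 changed sign and 1 crossed the 2-fold mark. Scalings shifted the median of all rows by at most 0.0345.

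No paired analysis was possible because each condition has 1 library, so leaving 1 out leaves nothing to compare. The rows under 10 reads in both libraries, and the control values of *CXCL1* and *CXCL2*, are limited by depth, whereas no depth shows how cultures differ. Alternatives with the row crossing the end of the *ICAM1* window, without the overlapped *TNFAIP3* row and with at least 10 reads in both libraries, and the count over all pathway windows, were chosen after seeing the data.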
